A study of Mus musculus with 4 samples.

Results

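The genes described here encode matricellular proteins of the CCN, thrombospondin and SPARC families, with tenascin-C and periostin beside them. They were chosen by name, and each was found through the RefSeq transcript that names its row. Of the 10 genes listed, 9 had a row (Ccn1, Ccn4, Ccn5, Thbs1, Thbs2, Sparc, Sparcl1, Tnc and Postn), out of 13085 genes in all, and Ccn2 was not analysed here. Ccn1 was formerly called Cyr61, Ccn4 Wisp1 and Ccn5 Wisp2. The list was drawn up with results of these data known, so all levels and differences below are a description and carry no test.

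RNA-seq was performed on 3T3-L1 cells, mouse preadipocytes that fill with lipid under adipogenic hormones, in 4 stably transfected lines. FLAG cells carry the empty FLAG vector and FLAG-CACUL1 cells overexpress CACUL1 from it, both selected with G418. The sh-Luc cells carry a hairpin against luciferase and the sh-CACUL1 cells a hairpin against CACUL1, both selected with Hygromycin B. In all lines differentiation was started in medium of 10% FBS with insulin (5 μg/ml), dexamethasone (1 μg/ml), IBMX (0.5 mM) and rosiglitazone (5 μM). Of these agents, only insulin is named for the medium added later, and RNA was taken on day 8. Resistant colonies were selected for each line, and the sources used here do not give whether a line came from 1 colony or from many. Each condition has 1 library, so there are no replicates to check any difference against, and the difference between lines of unlike vector cannot be told apart from the difference between cultures.

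Matricellular proteins are secreted into the extracellular matrix, where they change how cells sense and respond to it more than they build it. Thrombospondins bind CD36, CD47 and integrins and restrain vessel growth. SPARC binds collagen and is known to restrain adipogenesis, and its relative SPARCL1 (hevin) is a counter-adhesive protein of many tissues. CCN1 and CCN2 are textbook targets of YAP/TAZ, the coactivators that the Hippo pathway restrains, whereas CCN4 and CCN5 were first found as genes induced by Wnt signaling. Preadipocytes are rich in matrix and matricellular transcripts, and many of these decline as fat cells mature.

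The promoter windows of Ccn1, Thbs2 and Sparc are shown because these genes stood far apart in FLAG-CACUL1 cells: Ccn1 was low there, and Thbs2 and Sparc were at their highest. The RefSeq table (GRCm38.p6) held windows for 5 of the listed genes, namely Ccn1, Thbs2, Sparc, Tnc and Postn. The 250 bases before the gene start were searched on both strands for the letters GGAATG (TEAD), CAGACA (SMAD), TGANTCA (AP-1) and GGGCGG (GC box), and for the CArG box of SRF. Capitals mark the matches, and no matches overlap. Each sequence reads 5′ to 3′ on the gene's own strand, which is the minus strand for all 3 genes.
Ccn1, chr3:145649986-145650235: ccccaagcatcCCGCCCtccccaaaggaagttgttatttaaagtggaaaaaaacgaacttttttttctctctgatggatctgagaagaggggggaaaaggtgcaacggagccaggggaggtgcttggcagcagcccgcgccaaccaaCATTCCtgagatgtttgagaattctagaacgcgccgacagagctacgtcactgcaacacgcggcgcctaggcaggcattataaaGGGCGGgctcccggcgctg
Thbs2, chr17:14694263-14694512: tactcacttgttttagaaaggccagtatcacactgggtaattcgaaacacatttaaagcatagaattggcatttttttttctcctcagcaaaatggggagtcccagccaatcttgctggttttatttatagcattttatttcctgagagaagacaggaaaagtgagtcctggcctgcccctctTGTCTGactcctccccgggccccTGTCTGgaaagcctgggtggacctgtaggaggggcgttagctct
Sparc, chr11:55420081-55420330: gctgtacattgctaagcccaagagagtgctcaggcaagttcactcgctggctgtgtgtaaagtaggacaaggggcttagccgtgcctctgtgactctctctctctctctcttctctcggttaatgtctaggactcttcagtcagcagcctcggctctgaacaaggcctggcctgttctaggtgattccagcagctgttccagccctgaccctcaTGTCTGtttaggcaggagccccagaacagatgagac

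Of the 5 windows, the letters of TEAD were in Ccn1 alone, from 103 to 98 bases before its start and on the opposite strand. These letters occur in 12.6% of the 27025 promoters in the table. The SMAD letters were in Thbs2, at 2 positions, and in Sparc, at 1, against 17.1% of all promoters. GC boxes were in Ccn1 and Tnc (33.0% of all promoters). Neither the AP-1 letters (6.85%) nor the CArG box (1.41%) occurred in any of the 5 windows. A match of so few letters describes the sequence and is not shown to be a bound site.

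Expression was deposited as FPKM, which divides the fragments of a gene by its transcript length and by the size of the library, so that levels of different genes can be set beside each other. The step between low values, taken as FPKM times length, was used to estimate depth, at 14300000 to 14900000 fragments for FLAG-CACUL1, FLAG and sh-CACUL1 and 24000000 for sh-Luc. Numbers of fragments given below rest on these estimates and on full transcript length, and are approximate. Differences are log2 ratios of FPKM + 1, which understate the change of genes with low levels. Over the 9563 genes with at least 1 FPKM in all libraries the median difference was 0.13 between FLAG-CACUL1 and FLAG, -0.43 between sh-CACUL1 and sh-Luc, and -0.27 between FLAG and sh-Luc. Cacul1 itself had 9.61 FPKM in FLAG cells, 11.8 in FLAG-CACUL1 cells, 10.2 in sh-Luc cells and 5.39 in sh-CACUL1 cells. Both comparisons had the labelled direction, but the log2 differences of 0.27 and -0.82 were under 2-fold. The medians of 0.13 and -0.43 had the same signs.

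Adipocyte markers differed widely between the lines: in FLAG-CACUL1 against FLAG 10 of 10 were lower by 2-fold or more, and 9 were higher in sh-CACUL1 against sh-Luc. With the controls exchanged, 4 of 10 were lower in FLAG-CACUL1 (median -0.60), and in sh-CACUL1 3 were higher and 2 lower (median -0.14). The summed FPKM of 10 adipocyte markers was 7517 in FLAG and 16558 in sh-CACUL1, against 927 in FLAG-CACUL1 and 1725 in sh-Luc. Much of each sum was Fabp4, with 4991 FPKM in FLAG, 12543 in sh-CACUL1, 320.4 in FLAG-CACUL1 and 1020 in sh-Luc. Among the 10, the levels under 1 FPKM were Slc2a4 in FLAG-CACUL1 (0.101) and Cebpa (0.421) and Retn (0.192) in sh-Luc. No deposited row of any gene was at 0, so a level above 0 sets no marker apart. Of 11 preadipocyte or fibroblast markers, 5 were at least 2-fold higher and 1 lower in FLAG-CACUL1 against FLAG, and 2 were higher and 8 lower in sh-CACUL1 against sh-Luc. With the controls exchanged, 7 were higher and 1 lower in FLAG-CACUL1, and none was higher and 9 were lower in sh-CACUL1. The sum of these 11 markers was 8261 in FLAG cells, 10156 in FLAG-CACUL1 cells, 5424 in sh-Luc cells and 1100 in sh-CACUL1 cells. Dlk1 (0.220) and Thy1 (0.663) were under 1 FPKM in sh-Luc. Of 6 leukocyte markers listed, 2 had a row. Csf1r was under 1 FPKM in every library and Cd74 lay between 0.362 FPKM in sh-CACUL1 and 41.1 FPKM in FLAG-CACUL1. Of 5 endothelial markers listed, only Pecam1 had a row, and it was under 1 FPKM throughout. Markers without a row have no level to read. In such bulk libraries, fewer undifferentiated cells and less RNA of a gene in each cell cannot be told apart, and the part of the marker differences in the results below was not tested.

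Every measured matricellular gene was at least 2-fold lower in sh-CACUL1 than in sh-Luc, where 16.4% of all genes were. After median-of-ratios scaling Sparc and Sparcl1 were under 2-fold. Against FLAG, 5 of the 9 genes were at least 2-fold lower in sh-CACUL1, where 2016 of all 13085 genes were. The genes parted ways in FLAG-CACUL1. Relative to FLAG, FLAG-CACUL1 cells had at least 2-fold more Thbs1, Thbs2 and Postn, where 7.51% of all genes were higher. They had at least 2-fold less Ccn1 and Sparcl1, where 7.22% of all genes were lower. Amounts of Sparc, Tnc, Ccn4 and Ccn5 differed by less. Relative to sh-Luc, Thbs1, Thbs2 and Postn in FLAG-CACUL1 differed by less than 2-fold. Sparc and Postn were abundant in every library, and together held between 78.4% of the summed FPKM of the 9 genes in FLAG and 87.5% in FLAG-CACUL1. The summed FPKM of the 9 genes was 1224 in FLAG cells, 2394 in FLAG-CACUL1 cells, 2500 in sh-Luc cells and 888.3 in sh-CACUL1 cells. As a share of all FPKM of the library this was 0.259%, 0.505%, 0.601% and 0.239%, respectively.

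**Figure D1:**
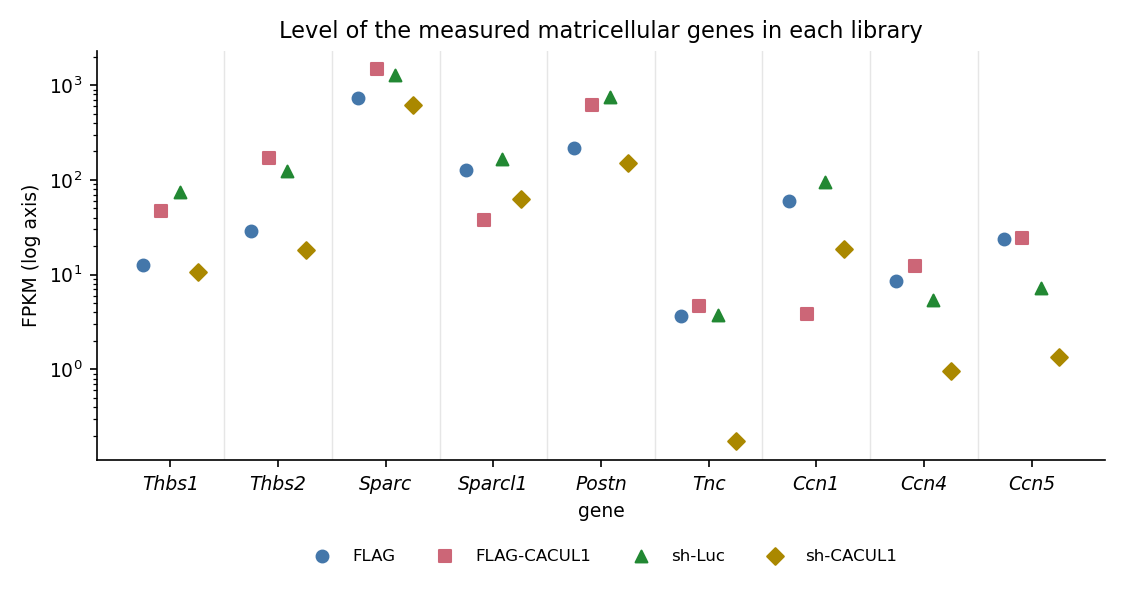
FPKM on a log axis for each of the 9 matricellular genes, with 1 point for each library (the FLAG pair and the hairpin pair; no replicates). The sh-CACUL1 point is the lowest of the 4 for every gene but Ccn1 and Sparcl1, whose lowest point is FLAG-CACUL1.

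Thrombospondins 1 and 2 are trimeric glycoproteins that bind CD36 and CD47. Thbs1 (NM_011580; GRCm38 chromosome 2, 118111876 to 118127133) had 12.6 FPKM in FLAG cells, 47.4 in FLAG-CACUL1 cells, 75.0 in sh-Luc cells and 10.7 in sh-CACUL1 cells. FLAG and sh-CACUL1 were thus the low libraries and lay close together. Thbs1 was 3.75-fold higher in FLAG-CACUL1 than in FLAG (log2 difference 1.83, or 1.70 above the median gene). In sh-CACUL1 it was 7.02-fold lower than in sh-Luc (log2 difference -2.70, or -2.27 relative to the median gene).

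Thbs2 (NM_011581; chromosome 17, 14694262 at its start on the minus strand and 14665500 at its end) was low in the same lines, FLAG and sh-CACUL1, and was highest in FLAG-CACUL1 where Thbs1 was highest in sh-Luc. It had 29.2 FPKM in FLAG cells, 169.4 in FLAG-CACUL1 cells, 123.9 in sh-Luc cells and 18.3 in sh-CACUL1 cells. Its log2 difference was 2.50 in FLAG-CACUL1 against FLAG, which only 57 of the 13085 genes exceeded, and -2.69 in sh-CACUL1 against sh-Luc. Thbs2 was the more abundant of the pair in every library, and the ratio of Thbs2 to Thbs1, which needs no scaling between libraries, was 2.31 in FLAG cells, 3.57 in FLAG-CACUL1 cells, 1.65 in sh-Luc cells and 1.71 in sh-CACUL1 cells. The share of Thbs2 was thus highest in FLAG-CACUL1 cells. The Thbs2 window printed above is the one with 2 matches to the SMAD letters.

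Postn encodes periostin, a protein that binds integrins and collagen and is abundant in fibroblasts. Its row (NM_001198765, NM_001198766 and NM_015784; chromosome 3, 54359267 to 54391041) had 218.6 FPKM in FLAG cells, 624.9 in FLAG-CACUL1 cells, 748.7 in sh-Luc cells and 151.1 in sh-CACUL1 cells. FLAG and sh-CACUL1 were again the low libraries. The log2 difference was 1.51 in FLAG-CACUL1 against FLAG, a 2.86-fold higher level, and -2.30 in sh-CACUL1 against sh-Luc, a 4.95-fold lower level. The row pools 3 transcripts, so splice forms of periostin were not separated.

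Sparc (NM_009242 and NM_001290817; chromosome 11, 55394159 to 55420080) was the most abundant of the 9 genes. It had 740.6 FPKM in FLAG cells, 1469 in FLAG-CACUL1 cells, 1275 in sh-Luc cells and 624.4 in sh-CACUL1 cells, which placed it 113th, 31st, 32nd and 102nd among the 13085 genes. The order of the libraries was that of Thbs2, with a narrower range. The log2 difference was 0.99 in FLAG-CACUL1 against FLAG, just under 2-fold, and -1.03 in sh-CACUL1 against sh-Luc, just over it. After median-of-ratios scaling these were 0.85 and -0.55, and after quantile normalization 1.12 and -0.94.

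Sparcl1, which encodes the SPARC relative hevin, parted from Sparc in FLAG-CACUL1 cells. Its row (NM_010097; chromosome 5, 104079108 to 104114088) had 127.1 FPKM in FLAG cells, 38.1 in FLAG-CACUL1 cells, 166.8 in sh-Luc cells and 62.5 in sh-CACUL1 cells. Both controls were higher than both CACUL1 lines. The log2 difference was -1.71 in FLAG-CACUL1 against FLAG and -1.40 in sh-CACUL1 against sh-Luc, and the latter was -0.93 after median-of-ratios scaling. Within a library, the ratio of Sparc to Sparcl1 was 5.83 in FLAG cells, 7.64 in sh-Luc cells and 9.98 in sh-CACUL1 cells, but 38.5 in FLAG-CACUL1.

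Tnc encodes tenascin-C, a large glycoprotein of developing and injured matrix. Its row (NM_011607; chromosome 4, 63959785 to 64047015) had 3.69 FPKM in FLAG cells, 4.64 in FLAG-CACUL1 cells, 3.79 in sh-Luc cells and 0.175 in sh-CACUL1 cells. The first 3 libraries were close together and sh-CACUL1 stood apart, with about 18 fragments against about 647 in sh-Luc. The FPKM ratio was 21.7-fold, while the log2 difference of FPKM + 1 was -2.03 and that without a pseudocount was -4.44. Postn was 59.3 times as abundant as Tnc in FLAG and 866.0 times in sh-CACUL1, so their ratio differed widely between libraries.

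Ccn1 encodes a secreted ligand of integrins that is known as an early response gene. Its row (NM_010516; chromosome 3, 145646971 to 145649985) had 59.6 FPKM in FLAG cells, 3.87 in FLAG-CACUL1 cells, 94.5 in sh-Luc cells and 18.7 in sh-CACUL1 cells. As for Sparcl1, both controls were higher than both CACUL1 lines. The level in FLAG-CACUL1 was 15.4-fold lower than in FLAG and rested on about 112 fragments against about 1736. The log2 difference of -3.64 was the 32nd lowest of the 13085 genes, and over the other pseudocounts and scalings it ranged from -3.95 without a pseudocount to -3.63 after quantile normalization. In sh-CACUL1 Ccn1 was 5.06-fold lower than in sh-Luc, a log2 difference of -2.28.

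Low Ccn1 and high thrombospondins in FLAG-CACUL1 met in the ratios of these genes inside the library. The ratio of Ccn1 to Thbs1 was 4.71 in FLAG cells, 1.26 in sh-Luc cells and 1.75 in sh-CACUL1 cells, whereas in FLAG-CACUL1 Thbs1 was 12.3 times as abundant as Ccn1. Relative to Thbs2, Ccn1 stood at 2.04 in FLAG, 1.02 in sh-CACUL1 and 0.763 in sh-Luc, and in FLAG-CACUL1 Thbs2 was 43.8 times as abundant. Such ratios do not depend on the scaling between libraries.

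Ccn4 and Ccn5, the former Wisp1 and Wisp2, were both higher in the FLAG lines than in the hairpin lines. Ccn5, which lacks the C-terminal domain of its relatives, is found in mesenchymal precursors of adipocytes. Its row (NM_016873; chromosome 2, 163820752 to 163833146) had 23.7 FPKM in FLAG cells, 24.3 in FLAG-CACUL1 cells, 7.16 in sh-Luc cells and 1.35 in sh-CACUL1 cells. Both FLAG lines were at one level and above both hairpin lines. The log2 difference was 0.03 in FLAG-CACUL1 against FLAG and -1.80 in sh-CACUL1 against sh-Luc, with about 35 fragments in sh-CACUL1.

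Ccn4 (NM_018865; chromosome 15, 66891369 to 66923201) had 8.48 FPKM in FLAG cells, 12.4 in FLAG-CACUL1 cells, 5.44 in sh-Luc cells and 0.971 in sh-CACUL1 cells. FLAG-CACUL1 was the highest library and sh-CACUL1 stood far below the others. The log2 difference was 0.50 in FLAG-CACUL1 against FLAG and -1.71 in sh-CACUL1 against sh-Luc. Ccn5 was more abundant than Ccn4 in every library, from 1.32 times in sh-Luc to 2.80 times in FLAG.

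To compare overexpression with knockdown, both sets of differences were laid side by side, as these comparisons share no library. In FLAG-CACUL1 against FLAG, 5 of the 9 genes differed at least 2-fold, where 14.7% of all genes did: 3 were at least 2-fold higher, where 7.51% of all genes were, and 2 were at least 2-fold lower, where 7.22% were. The median difference of the 9 genes was 0.50, against 0.09 for all 13085 genes. In sh-CACUL1 against sh-Luc, where 21.3% of all genes differed at least 2-fold, 9 of 9 were lower, where 16.4% of all genes were, and none was higher, where 4.94% were. Their median difference was -2.03, against -0.30 for all genes. These shares are given beside the counts only, since the genes were chosen with both comparisons known. After median-of-ratios scaling, 7 of 9 were at least 2-fold lower in sh-CACUL1, where 975 of all 13085 genes were. Sparc and Sparcl1 were then under 2-fold.

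**Figure D2:**
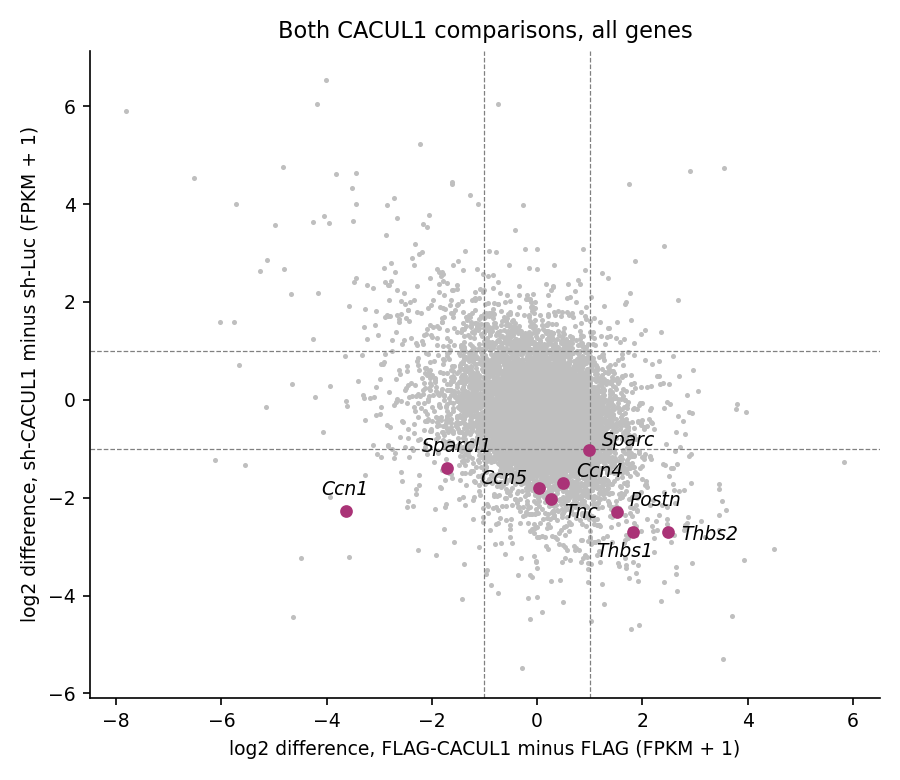
Log2 difference of FPKM + 1 for all 13085 genes (grey), FLAG-CACUL1 minus FLAG on the horizontal axis and sh-CACUL1 minus sh-Luc on the vertical axis, with the 9 matricellular genes named and dashed lines at 2-fold. All 9 lie below -1 on the vertical axis, while on the horizontal axis they run from Ccn1 at -3.64 to Thbs2 at 2.50.

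FLAG and sh-Luc, the 2 controls, are unlike in vector and in the drug used to select them, and 4 of the 9 genes differed at least 2-fold between them, where 21.0% of all genes did. FLAG cells had at least 2-fold less Thbs1, Thbs2 and Postn than sh-Luc cells (3 of 9, where 12.4% of all genes were lower) and at least 2-fold more Ccn5 (1 of 9, where 8.58% were higher). The log2 difference was -2.48 for Thbs1, -2.05 for Thbs2, -1.77 for Postn and 1.60 for Ccn5. In the same comparison 8 of 10 adipocyte markers were at least 2-fold higher in FLAG, with a median of 2.29, and of 11 preadipocyte or fibroblast markers 5 were higher and 1 lower. Of the 4 matricellular genes, Thbs1, Postn and Ccn5 differed more between controls than between FLAG-CACUL1 and FLAG (1.83, 1.51 and 0.03). Thbs2 differed less between controls than between FLAG-CACUL1 and FLAG (2.50). Sparc was lower in FLAG by 0.78 on the log2 scale, or by 1.10 after quantile normalization, and Ccn1, Sparcl1, Tnc and Ccn4 differed by less than 2-fold.

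Set against the other control, the genes kept different parts of these differences. Against sh-Luc, FLAG-CACUL1 cells had a log2 difference of -4.29 for Ccn1 and -2.10 for Sparcl1, in the same direction as against FLAG. Thbs1 (-0.65), Postn (-0.26) and Thbs2 (0.45) were then under 2-fold, with the sign turned for Thbs1 and Postn. Ccn5 (1.63) and Ccn4 (1.06), which were under 2-fold against FLAG, were at least 2-fold higher than in sh-Luc. Against FLAG, sh-CACUL1 cells were still at least 2-fold lower for Ccn5 (-3.40), Ccn4 (-2.27), Tnc (-2.00), Ccn1 (-1.62) and Sparcl1 (-1.01), the last under 2-fold after either scaling (-0.83 and -0.73). Thbs1 (-0.22), Sparc (-0.25), Postn (-0.53) and Thbs2 (-0.65) were under 2-fold there, and after quantile normalization Thbs1 and Sparc were slightly above FLAG, at 0.03 and 0.16. These comparisons share libraries with those above, and their values are not independent of them.

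**Figure D3:**
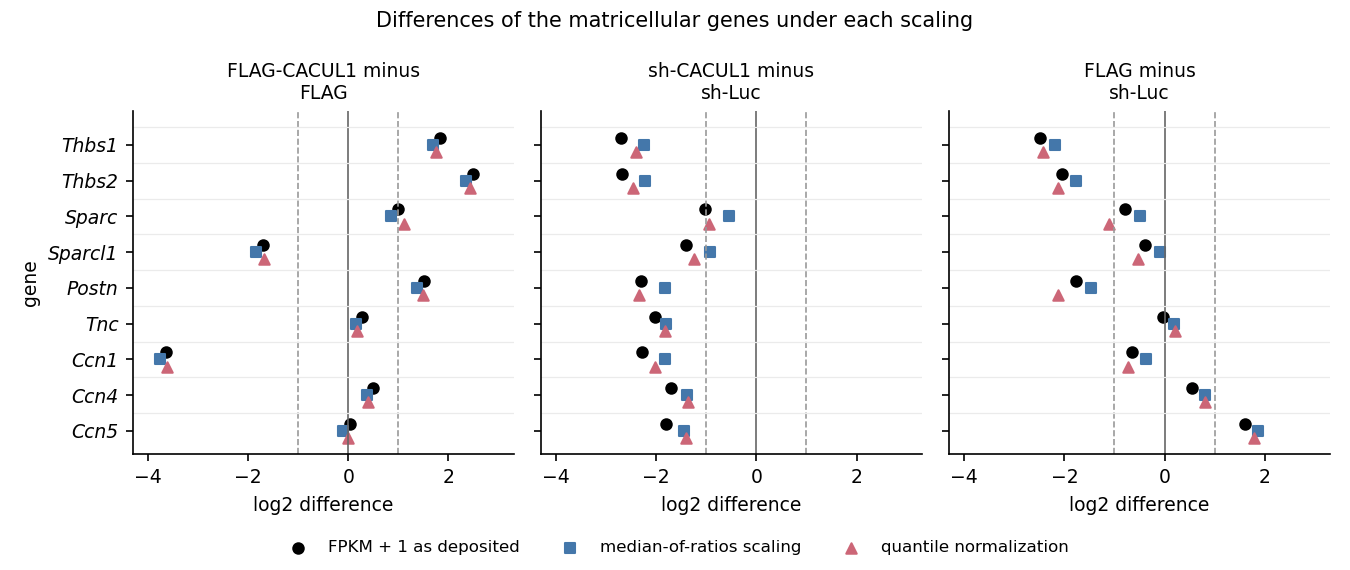
Log2 difference of each gene in FLAG-CACUL1 minus FLAG (left), sh-CACUL1 minus sh-Luc (middle) and FLAG minus sh-Luc (right), with FPKM + 1 as deposited (circles), after median-of-ratios scaling (squares) and after quantile normalization (triangles); dashed lines mark 2-fold. In the middle panel every point lies below 0 under each scaling, and Sparc lies nearest to 0.

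Other genes of the same families were mostly low. Of 12 measured, 5 were at least 2-fold higher and none lower in FLAG-CACUL1 against FLAG, with a median of 0.10 (no pseudocount gave 5 higher and 3 lower). In sh-CACUL1 against sh-Luc 1 was higher and 3 were lower, with a median of -0.45, and no pseudocount gave 2 and 7. In each of these libraries 6 of the 12 were under 1 FPKM. Thbs3, a pentameric thrombospondin, had 1.49 FPKM in FLAG cells, 29.1 in FLAG-CACUL1 cells, 17.2 in sh-Luc cells and 2.81 in sh-CACUL1 cells. Fstl1, a secreted relative of SPARC, had 224.2, 656.4, 624.9 and 107.3 FPKM in the same order. Both were thus lowest in FLAG and sh-CACUL1, as were Thbs1, Thbs2, Sparc and Postn. Spp1, which encodes osteopontin, had 147.7, 170.5, 51.2 and 5.29 FPKM, and Tgfbi, a relative of periostin, had 29.4, 105.3, 4.98 and 2.56 FPKM.

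Receptors of these proteins did not share a single pattern. Of 14 measured, 3 were at least 2-fold higher and 4 lower in FLAG-CACUL1 against FLAG (median -0.54), and 1 was higher and 9 were lower in sh-CACUL1 against sh-Luc (median -1.33). With the other control, 1 was higher and 1 lower in FLAG-CACUL1 (median 0.04), and 1 was higher and 9 were lower in sh-CACUL1 (median -1.89). Cd36, the fatty acid and thrombospondin receptor, had 120.5 FPKM in FLAG cells, 34.4 in FLAG-CACUL1 cells, 59.5 in sh-Luc cells and 325.6 in sh-CACUL1 cells, and so was highest where Thbs1 was lowest. Lrp1, an endocytic receptor that clears thrombospondins, had 143.2, 328.1, 145.4 and 23.7 FPKM in the same order. Itgb1, the beta subunit shared by many matrix receptors, had 96.3, 128.8, 220.3 and 52.8 FPKM. Itga6, a laminin receptor subunit that also binds CCN1, had 44.4 FPKM in FLAG and between 3.35 and 8.86 FPKM in the other libraries.

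As Ccn1 is a known target of YAP/TAZ, 17 other target genes were examined. In FLAG-CACUL1 against FLAG, 1 of the 17 was at least 2-fold higher and none was lower, with a median difference of 0.23, where Ccn1 was at -3.64. Other settings gave up to 2 lower genes, after median-of-ratios scaling and against the other control, where 2 were also higher and the median was -0.24. In sh-CACUL1 against sh-Luc 9 of the 17 were at least 2-fold lower, with a median of -1.08, and 6 were lower after either scaling. Myof (myoferlin) had 15.9 FPKM in FLAG cells, 44.3 in FLAG-CACUL1 cells, 63.5 in sh-Luc cells and 7.56 in sh-CACUL1 cells, and Axl, a receptor tyrosine kinase, had 57.6, 83.4, 77.8 and 16.8 FPKM. Myof and Axl were not low in FLAG-CACUL1. Amotl2 and Crim1, picked after their values were seen, were lowest there, with both controls above both CACUL1 lines as for Ccn1. Amotl2 had 25.02 FPKM in FLAG cells, 12.5 in FLAG-CACUL1 cells, 34.98 in sh-Luc cells and 18.3 in sh-CACUL1 cells. Crim1 had 4.95, 2.00, 6.35 and 3.19 FPKM in the same order. Their log2 differences of -0.94 and -0.99 in FLAG-CACUL1 against FLAG were just under 2-fold.

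Of 16 genes of the Hippo pathway and its effectors, 1 was at least 2-fold higher and 1 lower in FLAG-CACUL1 against FLAG, with a median of 0.36, and with the other control none was higher and 3 were lower, with a median of -0.34. In sh-CACUL1 against sh-Luc 6 were lower and none was higher, with a median of -0.86, and with the other control 2 were lower. Wwtr1, which encodes TAZ, had 27.0 FPKM in FLAG cells, 23.4 in FLAG-CACUL1 cells, 31.1 in sh-Luc cells and 10.0 in sh-CACUL1 cells. Yap1, which encodes YAP, had 22.4, 34.8, 30.4 and 16.9 FPKM in the same order. Vgll3, a TEAD cofactor known to inhibit adipocyte differentiation, had 1.57, 7.30, 30.9 and 1.93 FPKM, and was lowest in FLAG and sh-CACUL1.

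Among 7 genes of the TGF-beta response, none was at least 2-fold higher and 1 was lower in FLAG-CACUL1 against FLAG, with a median of -0.17, and with the other control 2 were higher and none lower. In sh-CACUL1 against sh-Luc 1 was higher and 5 were lower, with a median of -1.10, and 3 were lower after either scaling. Smad7, a feedback inhibitor of the pathway, had 17.0 FPKM in FLAG cells, 3.22 in FLAG-CACUL1 cells, 1.95 in sh-Luc cells and 0.373 in sh-CACUL1 cells. FLAG was thus its single high library. Tgfb1, the ligand, had 58.7, 44.6, 20.7 and 6.38 FPKM in the same order and was likewise highest in FLAG. Tgfb1i1, which encodes the focal adhesion protein Hic-5, had 4.09, 8.67, 9.98 and 2.27 FPKM and was instead low in FLAG and sh-CACUL1. Pmepa1, another feedback inhibitor, had 17.5, 15.4, 8.996 and 1.15 FPKM.

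**Figure D4:**
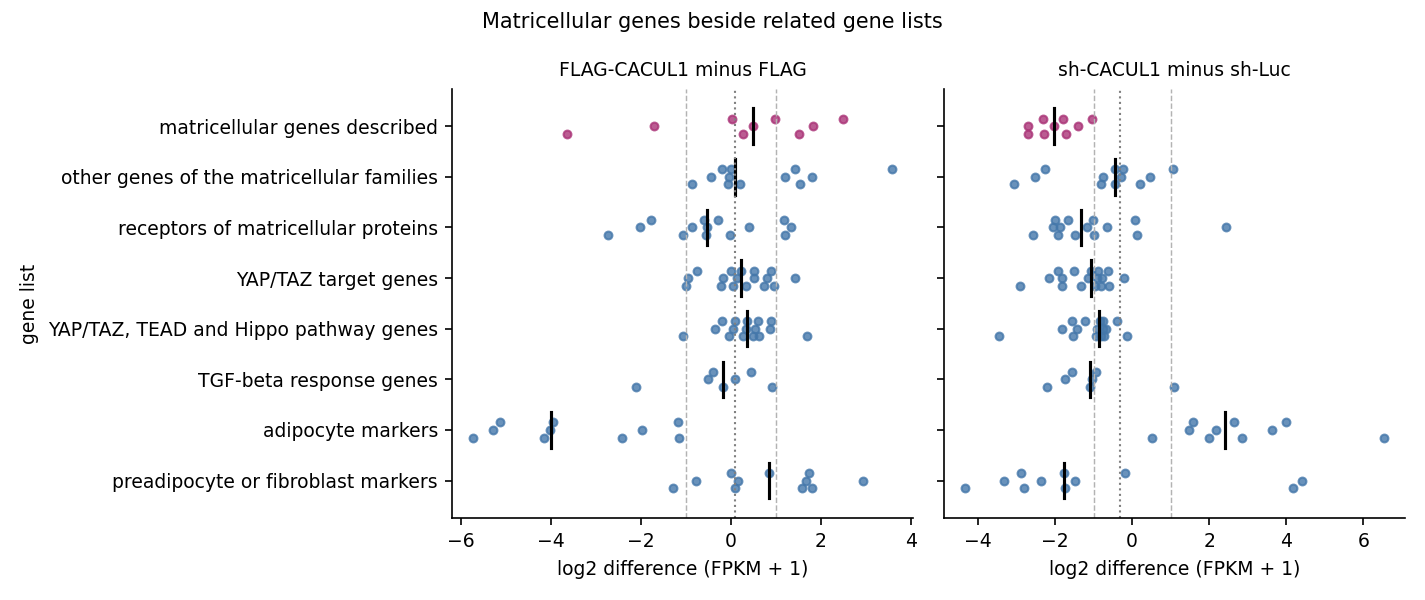
Log2 difference of FPKM + 1 for each gene of each list (points) and the median of the list (black bar), in FLAG-CACUL1 minus FLAG (left) and sh-CACUL1 minus sh-Luc (right). The dotted line is the median of all 13085 genes and dashed lines mark 2-fold; the adipocyte markers have medians of -3.99 and 2.41, and the matricellular genes 0.50 and -2.03.

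Lastly, genes with the most similar pattern over the 4 libraries were sought by Euclidean distance of log2(FPKM + 1), centred on the mean of each gene, among the 9563 genes with at least 1 FPKM in all libraries. With 4 points a close match is easy to find. Nearest to Sparc was Parva, which encodes the focal adhesion protein alpha-parvin (distance 0.0241), and nearest to Postn was Sox9, a chondrogenic transcription factor (0.0941). Nearest to Thbs1 was Mmp14, a membrane-bound matrix protease (0.274), with 190.7 FPKM in FLAG cells, 750.0 in FLAG-CACUL1 cells, 931.6 in sh-Luc cells and 144.7 in sh-CACUL1 cells. Thbs2 was nearest to Tm4sf1 (0.287), Ccn5 to Fbln2, a fibulin of the matrix (0.222), and Sparcl1 to Cdt1, a replication licensing factor (0.247). Ccn1 had no close match, and its nearest gene was Nr4a1, another early response gene, at a distance of 1.68.

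Within the family, Thbs1 and Postn were the closest pair (0.501), followed by Ccn4 and Tnc (0.611), Thbs2 and Postn (0.856) and Thbs1 and Thbs2 (0.895). Ccn4 and Tnc were under 1 FPKM in sh-CACUL1 (0.971 and 0.175), so the pseudocount brings their patterns closer. Without a pseudocount their log2 differences between sh-CACUL1 and sh-Luc were -2.49 and -4.44. Ccn1 and Thbs2 were the farthest apart (4.74). Relatives were not always the nearest: Ccn1 lay nearer to Sparcl1 (1.69) than to Ccn4 (4.21) or Ccn5 (4.66), and Sparc nearer to Postn (0.977) than to Sparcl1 (2.07). Ccn4 and Ccn5 were 0.918 apart.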

How the data were processed

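The authors deposited FPKM values for 13110 rows of RefSeq transcripts in each of 4 libraries, 1 per condition. A company prepared and sequenced the mRNA libraries. The submitters' processing notes name the build mm10, and the aligner, the FPKM program, any scaling between libraries and any filter on rows are not given in the sources used here. No deposited row was at 0 FPKM in any library. Shares of all genes therefore cover only genes with a level above 0 in every library. No counts were given, so no count test was used and no p-value was computed.

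Rows were named through the RefSeq table of GENCODE M21 (GRCm38). Of the rows, 196 had no symbol and 8 had several. Rows sharing a symbol were summed, which left 13085 genes. Gene coordinates and promoter sequences are from RefSeq (GRCm38.p6). A difference is the log2 ratio of FPKM with a pseudocount of 1, without a filter on low values, and genes were counted from 2-fold, the cut-off of the study. Fragments per library were estimated from the spacing of FPKM multiplied by length in rows with a single transcript, 3000 bases or longer.

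The genes and gene lists were chosen with earlier results of these data known. Named are all 9 measured genes, genes with the largest differences of each list (up to 4 per list, at least 1 FPKM in a library compared), the gene nearest in pattern to each, and Cacul1. An item of the lists is not reported here and was left out of the counts. Markers under 1 FPKM, Fabp4, Yap1, Amotl2 and Crim1 were named after their values were seen. The 8 alternatives were a pseudocount of 0.1, no pseudocount, quantile normalization, median-of-ratios scaling, at least 1 FPKM in all libraries, the row with the highest mean in place of the sum, the other control and a cut-off of 3-fold. Scripts were tested on simulated data. Python 3.11.15, numpy 2.4.6, pandas 2.3.3 and matplotlib 3.10.9 were used.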

Additional observations from a re-analysis of the deposited data

How the results depend on the processing

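No paired analysis was possible because each condition has 1 library. Of 18 differences of at least 2-fold over the 3 comparisons, all 18 kept their direction with either other pseudocount, either other scaling and the highest row, as did the 16 that could be computed under the filter of 1 FPKM, which left out Tnc and Ccn4. Median-of-ratios scaling brought 2 of them under 2-fold and quantile normalization 1. With the other control, 12 of 14 kept their direction. In sh-CACUL1, 5 genes, not 9, were then at least 2-fold lower, where 2016 of all 13085 genes were. The reversed differences were those of Thbs1 (-0.65) and Postn (-0.26) in FLAG-CACUL1. Among other genes named with a difference of at least 2-fold, the other control reversed Myof (-0.51), Vgll3 (-1.94), Smad7 (0.52), Retn (0.97), Cebpa (0.86) and Dlk1 (5.05) in FLAG-CACUL1, and Thbs3 (0.61), Vgll3 (0.19), Slc2a4 (-1.69), Cebpa (-1.36), Dlk1 (-2.14) and Thy1 (-0.30) in sh-CACUL1. Of those under 2-fold, Itgb1 (-0.77), Tgfb1 (1.07), Tgfb1i1 (-0.18), Pmepa1 (0.71) and Csf1r (0.32) turned sign in FLAG-CACUL1 and Pecam1 (-0.18) in sh-CACUL1. Among the genes nearest in pattern, Mmp14 and Sox9 were higher in FLAG-CACUL1 than in FLAG but lower than in sh-Luc. Fbln2 was lower in FLAG-CACUL1 than in FLAG but higher than in sh-Luc. With the other control Ccn5 and Ccn4 were at least 2-fold higher in FLAG-CACUL1. The cause was not tested.

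Counts over all genes depended on the settings. In FLAG-CACUL1 against FLAG, 1928 genes were at least 2-fold different, 3161 with a pseudocount of 0.1, 3775 with none and 663 at 3-fold. In sh-CACUL1 against sh-Luc there were 2788, 4799 with no pseudocount and 936 at 3-fold. In FLAG against sh-Luc there were 2750, 4711 with no pseudocount and 994 at 3-fold. Of the calls, 23.2% were higher in sh-CACUL1 as deposited, 52.1% after quantile normalization and 55.8% after median-of-ratios scaling. For FLAG against sh-Luc these shares were 40.8%, 54.1% and 62.5%, and for FLAG-CACUL1 against FLAG 51.0%, 44.9% and 39.2%. Depth limits Tnc, Ccn5 and Ccn4 in sh-CACUL1, with about 18, 35 and 74 fragments.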
